A study of Mus musculus with 6 samples.

Results

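The genes described here encode the proteasome, its regulators and the chaperones that assemble it. They were all protein-coding genes of the deposited table whose symbols run from *Psma* to *Psmg* and end in a number, with or without a final letter. The rule took 49 of 54532 genes, and used no measured value. Of the 49, 46 had a mean of at least 1 FPKM (fragments per gene length in kilobases and library size) over the 6 libraries and were tested together with all 15451 genes that passed this filter, while *Psmb8*, *Psmb9* and *Psmb11* did not pass.

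The libraries were made from total RNA of germ cells of the mouse testis, labelled as STRA8+ cells. STRA8 is the factor that germ cells switch on at meiotic entry. There were 3 control libraries, with the genotype given as Cre, and 3 libraries of *Srsf1* knockout cells (cKO), from a conditional knockout of the splicing factor gene *Srsf1*. The labels do not name the Cre driver, the strain, the age of the mice or the number of animals behind a library. They also do not say that the libraries of a group came from separate animals, so the p-values measure only the spread between these samples.

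The proteasome degrades proteins that carry ubiquitin chains. Its 20S core is a barrel of stacked rings, with outer alpha rings that gate the entrance and inner beta rings that hold the proteolytic sites. The 19S cap recognises ubiquitin, unfolds the substrate with a ring of ATPases and feeds it into the barrel, and other activators (the PA28 proteins and PA200) can take the place of the cap. Germ cells carry a special form, the spermatoproteasome, in which PSMA8 replaces its paralog PSMA7 at the alpha4 position. PA200, encoded by *Psme4*, is abundant in testis and is known for the degradation of acetylated histones, and loss of *Psma8* in mice stops spermatogenesis.

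*Srsf1* was low in every cKO library. It stood at 84.7, 45.2 and 51.9 FPKM in control and at 5.08, 4.94 and 5.17 FPKM in cKO. Between 14447887 and 17310353 fragments were counted per library. *Stra8* was present throughout, at 222.1 to 261.7 FPKM in control and 242.1 to 312.7 FPKM in cKO, and did not pass the test (log2 fold change 0.15, limma adjusted p = 0.36). All 10 markers of spermatids and 9 of 10 markers of pachytene spermatocytes fell in cKO, while 2 of 10 markers of early meiotic prophase (*Spo11* and *Rec8*) did. Of 9 tested markers of undifferentiated spermatogonia, *Ret* and *Utf1* rose and *Id4* fell (median log2 fold change 0.33), and of 10 markers of differentiating spermatogonia 9 had a log2 fold change above 0 and *Dmrtb1* fell (median 0.16). Their part in the small rises of proteasome genes described here was not tested. The summed spermatid markers reached 2514 to 8439 FPKM in control and 8.05 to 9.42 FPKM in cKO, and the summed pachytene markers 734.5 to 845.9 FPKM in control and 126.6 to 147.7 FPKM in cKO. Control replicate 2 stood apart from the other control libraries, since its spermatid markers had a median of 2.74 times the mean of control replicates 1 and 3. The medians of Leydig cell (5.06 times), macrophage and blood (2.85 times) and peritubular cell markers (2.01 times) were also above 1 there, at lower levels, with sums in that library of 14.0, 21.6 and 6.44 FPKM. These somatic medians rest on 2 or 3 genes each, those that reached 1 FPKM in control on average, and 1 gene of each was not high in that library: *Star* of Leydig cells (1.03 times), *Cd68* of macrophages (0.774 times) and *Tagln* of peritubular cells (0.843 times). Among the markers of Sertoli, Leydig, peritubular, blood and endothelial cells, 15 of 31 passed the filter and 1 was called, *Rhox5*, which was higher in cKO. These somatic markers summed to 79.3 to 92.3 FPKM in control and 67.7 to 134.5 FPKM in cKO, so the groups overlapped.

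Proteasome genes changed in both directions, with many small rises and few falls, some of them large. At an adjusted p of at most 0.05 (limma on log2(FPKM + 1), Benjamini-Hochberg over all genes tested), 12 of the 46 rose in cKO and 5 fell, and 29 did not pass. Calls in either direction made up 34.0% of all genes tested, rises 11.8% and falls 22.2%. The members therefore had 37.0% called, close to the background, with 26.1% higher and 10.9% lower. The median log2 fold change was 0.11 for the 46 genes and -0.0082 for all genes tested. In 18 of the 46 all 3 cKO libraries lay above all 3 control libraries, and in 8 all lay below. Over all genes tested the groups did not overlap in 50.4%, with cKO higher in 21.8% and lower in 28.6%.

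The split between rises and falls depended on the scaling of the libraries. Of all calls in the table, 1821 of 5258 were rises with the deposited FPKM. Quantile normalization shifted all genes, whose median went from -0.0082 to 0.21, made 67.1% of all calls rises and called 19 members higher and 5 lower, and 12 of the 12 genes called higher with the deposited FPKM were among the 19. The median of the members exceeded that of all genes by 0.12 on the log2 scale with the deposited FPKM and by 0.0003 after quantile normalization. Under the other scalings and fits this excess was 0.099 to 0.18. With FPKM scaled to the same sum in each library, 47.8% of all calls were rises, and 18 members of 46 were called higher and 4 lower. Of all genes tested, 17.5% were called higher with that scaling and 33.4% after quantile normalization. The rises given here are therefore relative to the deposited scaling.

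**Figure D1:**
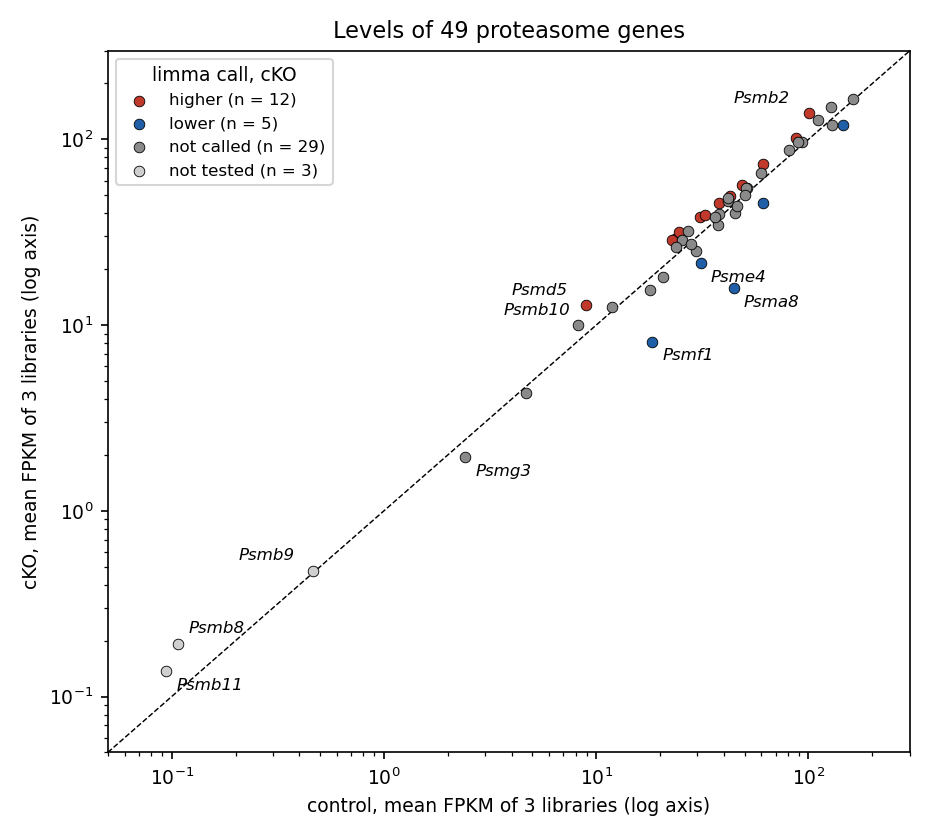
Mean FPKM of each of the 49 proteasome genes in the 3 cKO libraries (vertical, log axis) against the 3 control libraries (horizontal, log axis), coloured by the limma call, with the dashed line marking equal levels. *Psma8*, *Psme4* and *Psmf1* lie below the line, and *Psmb8*, *Psmb9* and *Psmb11* lie under 1 FPKM in both groups.

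Of the 8 genes of the alpha ring, the germ cell form *Psma8* fell, *Psma1*, *Psma2*, *Psma5* and *Psma7* rose, and 3 did not pass the test. The median log2 fold change of the ring was 0.20.

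*Psma8* (ENSMUSG00000036743, chromosome 18, 14706151 to 14762299 on the plus strand of GRCm38) encodes the alpha4 subunit of the spermatoproteasome. It was read at 53.5, 39.0 and 40.7 FPKM in control and at 13.2, 16.7 and 17.6 FPKM in cKO. Every cKO library lay far below every control library, and the mean went from 44.4 ± 7.90 FPKM to 15.8 ± 2.33 FPKM (SD, n = 3 each), 35.6% of control. The log2 fold change was -1.43 with a standard error of 0.15 (limma, Benjamini-Hochberg adjusted p = 0.00049). This was the largest change among the 46 genes tested. The transcript was thus still counted in every cKO library, with at least 350 fragments. The pachytene marker *Piwil1*, which encodes a PIWI protein of meiotic germ cells, went over the same libraries from 53.6 to 2.55 FPKM, and *Ldhc*, the lactate dehydrogenase of spermatocytes, from 385.1 to 1.08 FPKM. Both were lower in cKO, as *Psma8* was. Of the 10 pachytene markers 9 fell, but *Tbpl1* fell less than *Psma8*, to 61.8% of control. *Mybl1* did not pass the test (log2 fold change 0.014, limma adjusted p = 0.96). The part of these markers in the fall of *Psma8* was not tested. In RNA from a cell suspension, fewer cells of a type and less RNA per cell cannot be told apart.

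*Psma7* (ENSMUSG00000027566, chromosome 2, 180036374 to 180042433, minus strand) encodes the alpha4 subunit of other tissues. It stood at 22.6, 28.5 and 22.8 FPKM in control and at 31.4, 31.0 and 33.3 FPKM in cKO. The groups did not overlap, and the mean rose by 29.5%, from 24.6 ± 3.33 to 31.9 ± 1.22 FPKM. The log2 fold change was 0.37 with a standard error of 0.10 (limma, Benjamini-Hochberg adjusted p = 0.031). The call did not hold in 8 of 16 alternatives, among them each that left out a library other than control replicate 2. Every 100-base window of the annotated transcripts of *Psma7* and *Psma8* occurred in no other annotated gene, so fragments of one could be told from those of the other.

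The share of *Psma8* among the paralogs was lower in every cKO library than in any control library. *Psma8* made up 70.3, 57.8 and 64.1% of the summed *Psma7* and *Psma8* FPKM in control, and 29.5, 35.0 and 34.6% in cKO. With the gene lengths of the table, *Psma8* was the more abundant paralog in all 3 control libraries and the less abundant in all 3 cKO libraries. The mean share was 64.1% ± 6.23 in control and 33.0% ± 3.01 in cKO, a difference of -31.0 percentage points (exact two-sided permutation test, p = 0.1, the smallest that 3 libraries against 3 allow, and 0.2 after Benjamini-Hochberg adjustment over 6 such comparisons). The sum of both was 69.0 ± 6.42 FPKM in control against 47.7 ± 3.15 FPKM in cKO, again without overlap (exact two-sided permutation p = 0.1, adjusted 0.2), so in FPKM the gain of *Psma7* was smaller than the loss of *Psma8*. The level of the share depends on the gene lengths in the table, 1693 bases for *Psma8* and 3071 bases for *Psma7*. With the length of all *Psma8* exons in GENCODE M21, 2494 bases, the shares were 61.6, 48.2 and 54.8% in control and 22.2, 26.7 and 26.4% in cKO, a difference of -29.8 points, and control replicate 2 then held less *Psma8* than *Psma7*. In fragments not divided by length, control replicates 2 and 3 also held fewer of *Psma8* (1013 and 1191) than of *Psma7* (1340 and 1212). Which paralog led in control thus depended on the length used, while the groups did not overlap with either length.

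**Figure D2:**
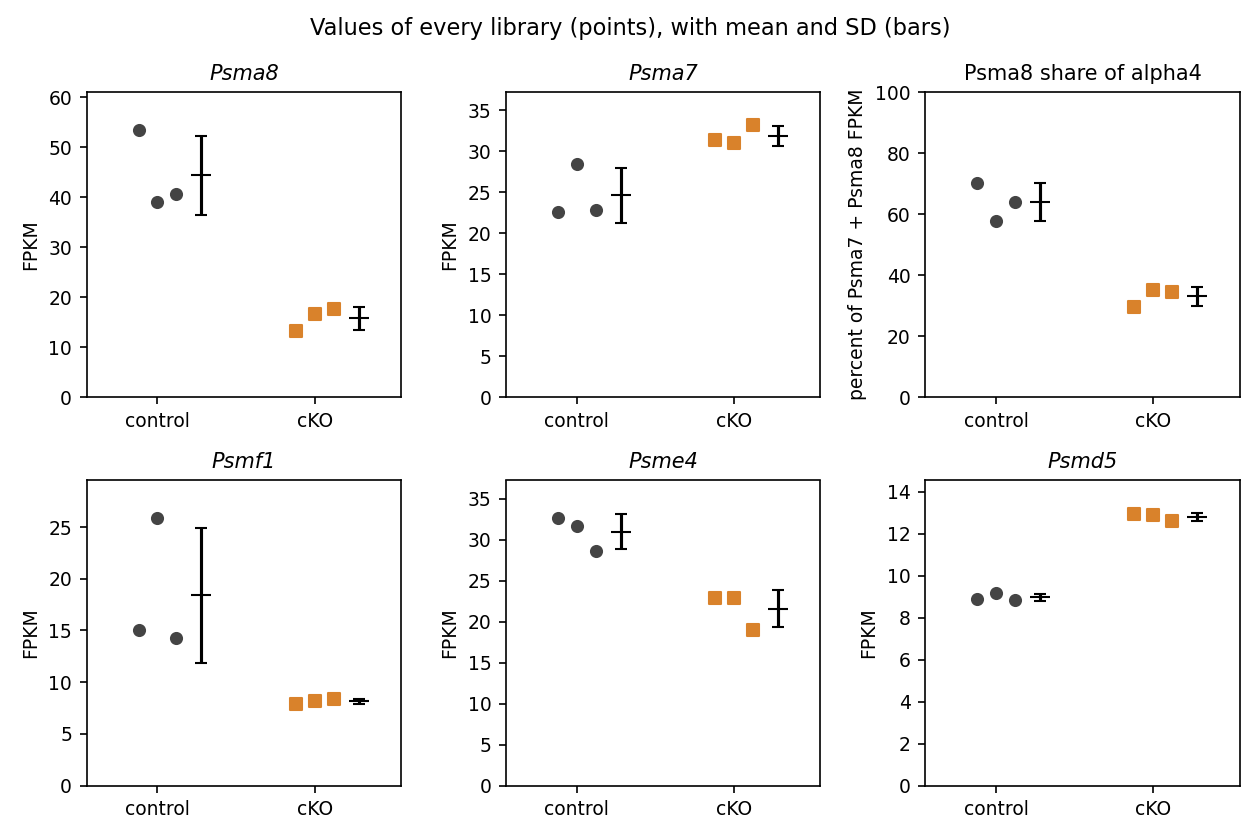
FPKM of *Psma8*, *Psma7*, *Psmf1*, *Psme4* and *Psmd5* and the share of *Psma8* in the summed *Psma7* and *Psma8* FPKM, with 1 point for each library (circles, control, squares, cKO) and the mean and SD as bars. No group overlaps the other in any panel, and control replicate 2, at 25.9 FPKM, stands above the other control libraries for *Psmf1*.

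The other alpha genes moved less. *Psma1* was at 29.8, 30.9 and 31.3 FPKM in control and 37.3, 40.0 and 36.8 FPKM in cKO, a log2 fold change of 0.30 ± 0.065 (SE, limma adjusted p = 0.012). *Psma2* was at 23.0, 25.9 and 21.8 FPKM in control and 29.7, 29.3 and 28.2 FPKM in cKO (log2 fold change 0.30 ± 0.080, limma adjusted p = 0.029). *Psma5* went from 57.4, 66.5 and 59.8 FPKM to 73.3, 77.5 and 70.0 FPKM (log2 fold change 0.26 ± 0.080, limma adjusted p = 0.042). The groups did not overlap for any of these 3 genes. *Psma4* (log2 fold change 0.13), *Psma3* (-0.20) and *Psma6* (-0.12) did not pass the test, at limma adjusted p of 0.15, 0.093 and 0.36. The groups of *Psma4* did not overlap, with cKO higher, nor did those of *Psma3*, with cKO lower. Fragments of *Psma5* could be shared with other genes, since 76.3% of its 100-base windows were unique, and 86.6% of those of *Psma3* were.

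All 7 standard beta genes had a log2 fold change above 0, and *Psmb2*, *Psmb1* and *Psmb7* passed the test. Of all 15451 genes tested, 7601 had a log2 fold change above 0, and 11.8% were called higher. The median of the 7 exceeded that of all genes by 0.24 with the deposited FPKM and by 0.094 after quantile normalization. Each beta gene encodes 1 position of the inner ring. *Psmb2* was at 98.6, 107.7 and 95.2 FPKM in control and at 140.8, 135.9 and 138.3 FPKM in cKO. The groups were far apart compared with their spread, and the mean was higher by 37.6% (log2 fold change 0.46 ± 0.070, limma adjusted p = 0.0026). *Psmb1* was at 37.4, 40.6 and 36.1 FPKM in control and 43.8, 45.2 and 46.9 FPKM in cKO (log2 fold change 0.25 ± 0.071, limma adjusted p = 0.034). *Psmb4*, at 127.3 ± 1.76 FPKM in control the most abundant beta gene, missed the threshold (log2 fold change 0.23, limma adjusted p = 0.069), although its groups did not overlap, and *Psmb3* did as well (0.16, adjusted p = 0.35).

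The 3 catalytic positions were unequal in their test results. *Psmb7*, the trypsin-like beta2 subunit, was at 30.7, 34.8 and 31.7 FPKM in control and 39.2, 39.8 and 37.8 FPKM in cKO (log2 fold change 0.26 ± 0.071, limma adjusted p = 0.030). Of its exon bases, 11.8% overlap *Nek6* on the opposite strand, and whether counting used strand is not given in the sources used here. *Psmb6*, the caspase-like beta1 subunit, was at 78.9, 88.0 and 75.0 FPKM in control and 84.5, 87.4 and 89.6 FPKM in cKO, with overlap (log2 fold change 0.11 ± 0.078, limma adjusted p = 0.30). *Psmb5*, the chymotrypsin-like beta5 subunit, was at 88.1, 105.2 and 85.4 FPKM in control and 88.0, 95.3 and 107.0 FPKM in cKO. Its groups overlapped (log2 fold change 0.059 ± 0.11, limma adjusted p = 0.71). Of the 100-base windows of *Psmb5*, 77.8% were unique. No test of a difference between these 3 genes was made.

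Over the 14 genes of the standard core, *Psma1* to *Psma7* and *Psmb1* to *Psmb7*, 7 rose and none fell, where 11.8% of all genes tested rose and 22.2% fell, and 12 had a log2 fold change above 0. Their median was 0.24, which was 0.25 above the median of all genes with the deposited FPKM and 0.11 above it after quantile normalization. Their summed FPKM was 839.7, 927.1 and 816.8 in control and 951.5, 1004 and 973.0 in cKO. The groups did not overlap, and the ratio of the mean sums was 1.13.

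The immune forms of the catalytic subunits, which cells make after interferon, and the thymus form differed in level. *Psmb8*, *Psmb9* and *Psmb11* stayed under 1 FPKM in every library. *Psmb10*, the immune beta2 form, was above that, at 7.83, 9.15 and 7.66 FPKM in control and 10.7, 9.25 and 10.1 FPKM in cKO. The groups did not overlap, but the difference did not pass the test (log2 fold change 0.26 ± 0.10, limma adjusted p = 0.089). *Psmb8*, the immune beta5 form, was counted with 3, 8 and 3 fragments in control and 10, 8 and 6 in cKO. *Psmb9*, the immune beta1 form, had 23, 39 and 20 fragments in control and 22, 28 and 29 in cKO. *Psmb11*, the thymus form of beta5, had 5, 1 and 17 fragments in control and 10, 9 and 11 in cKO. The counts of *Psmb8* and *Psmb11* were few, with 1 library under the floor of 3 fragments, the groups overlapped for all 3 genes, and no difference was detectable at this depth.

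As a share of the FPKM of all 6 catalytic genes, the immune forms took 4.02, 4.21 and 4.02% in control and 5.08, 4.29 and 4.38% in cKO. The difference of 0.50 percentage points had an exact two-sided permutation p of 0.1, or 0.2 adjusted over the 6 comparisons, and was 0.25 points without cKO replicate 1. Position by position, *Psmb10* took 20.2% ± 0.665 of beta2 in control and 20.5% ± 1.39 in cKO (exact two-sided permutation p = 0.7, adjusted 0.84). *Psmb9* took 0.561% of beta1 in control and 0.541% in cKO (exact two-sided permutation p = 0.9), and *Psmb8* 0.110% of beta5 in control and 0.203% in cKO (exact two-sided permutation p = 0.2, adjusted 0.3). Markers of macrophages and blood, which use these forms, summed to 9.38 to 21.6 FPKM in control and 7.83 to 12.4 FPKM in cKO. Of 10 genes of interferon response and antigen presentation, 7 were tested and none was called by limma, where 34.0% of all genes tested were called. Of the 7, 6 had a log2 fold change above 0, against 7601 of all 15451 genes tested. In 2 the groups did not overlap, with cKO higher, as in 21.8% of all genes tested. The largest change was 0.71, for *H2-D1* (limma adjusted p = 0.1).

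The 19S cap changed in both directions. Of its 17 ATPase and non-ATPase subunits 3 rose, 2 fell and 12 did not pass, and these 5 calls are near the 34.0% of all genes tested, with a median log2 fold change of 0.11. Among the 6 ATPases of the base, which unfold the substrate and open the core, *Psmc1* and *Psmc4* rose and *Psmc3* fell. *Psmc3* was at 149.4, 145.7 and 141.2 FPKM in control and 117.6, 125.5 and 116.1 FPKM in cKO, a clear separation of a small size (log2 fold change -0.28 ± 0.065, limma adjusted p = 0.016). Its call was lost with FPKM scaled to the same sum, with the replicate number as a block, and without control replicate 1, cKO replicate 1 or cKO replicate 3. Of the *Psmc3* exons, 8.25% overlap *Slc39a13* on the opposite strand, and the same limit holds as for *Psmb7*. Among the other genes that passed the test, opposite-strand genes overlap 4.54% of the *Psma5* exons and 0.634% of the *Psme1* exons. *Psmc1* was at 87.7, 89.5 and 84.1 FPKM in control and 100.5, 102.3 and 103.3 FPKM in cKO (log2 fold change 0.23 ± 0.059, limma adjusted p = 0.026), and *Psmc4* had a log2 fold change of 0.22 ± 0.062 (limma adjusted p = 0.034).

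Among the 11 non-ATPase subunits *Psmd8* fell and *Psmd12* rose. *Psmd8* (chromosome 7, 29174188 to 29180701, minus strand), a lid subunit that joins late in assembly, was at 63.3, 64.6 and 54.9 FPKM in control and at 42.8, 46.5 and 47.6 FPKM in cKO. No cKO library reached a control library, and the mean fell from 60.9 ± 5.25 to 45.6 ± 2.53 FPKM (log2 fold change -0.41 ± 0.086, limma adjusted p = 0.011). *Psmd12*, also of the lid, had a log2 fold change of 0.22 ± 0.069 (limma adjusted p = 0.047), a call that did not hold in 10 of 16 alternatives. *Psmd2*, which encodes the scaffold subunit for ubiquitin shuttles and was the most abundant gene of all 49, was at 162.0 ± 9.81 FPKM in control against 164.4 ± 2.68 FPKM in cKO (log2 fold change 0.023, limma adjusted p = 0.82). The ubiquitin receptor *Psmd4* (log2 fold change 0.11, limma adjusted p = 0.34) and the deubiquitinase of the lid *Psmd14* (0.080, adjusted p = 0.42) did not pass either.

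**Figure D3:**
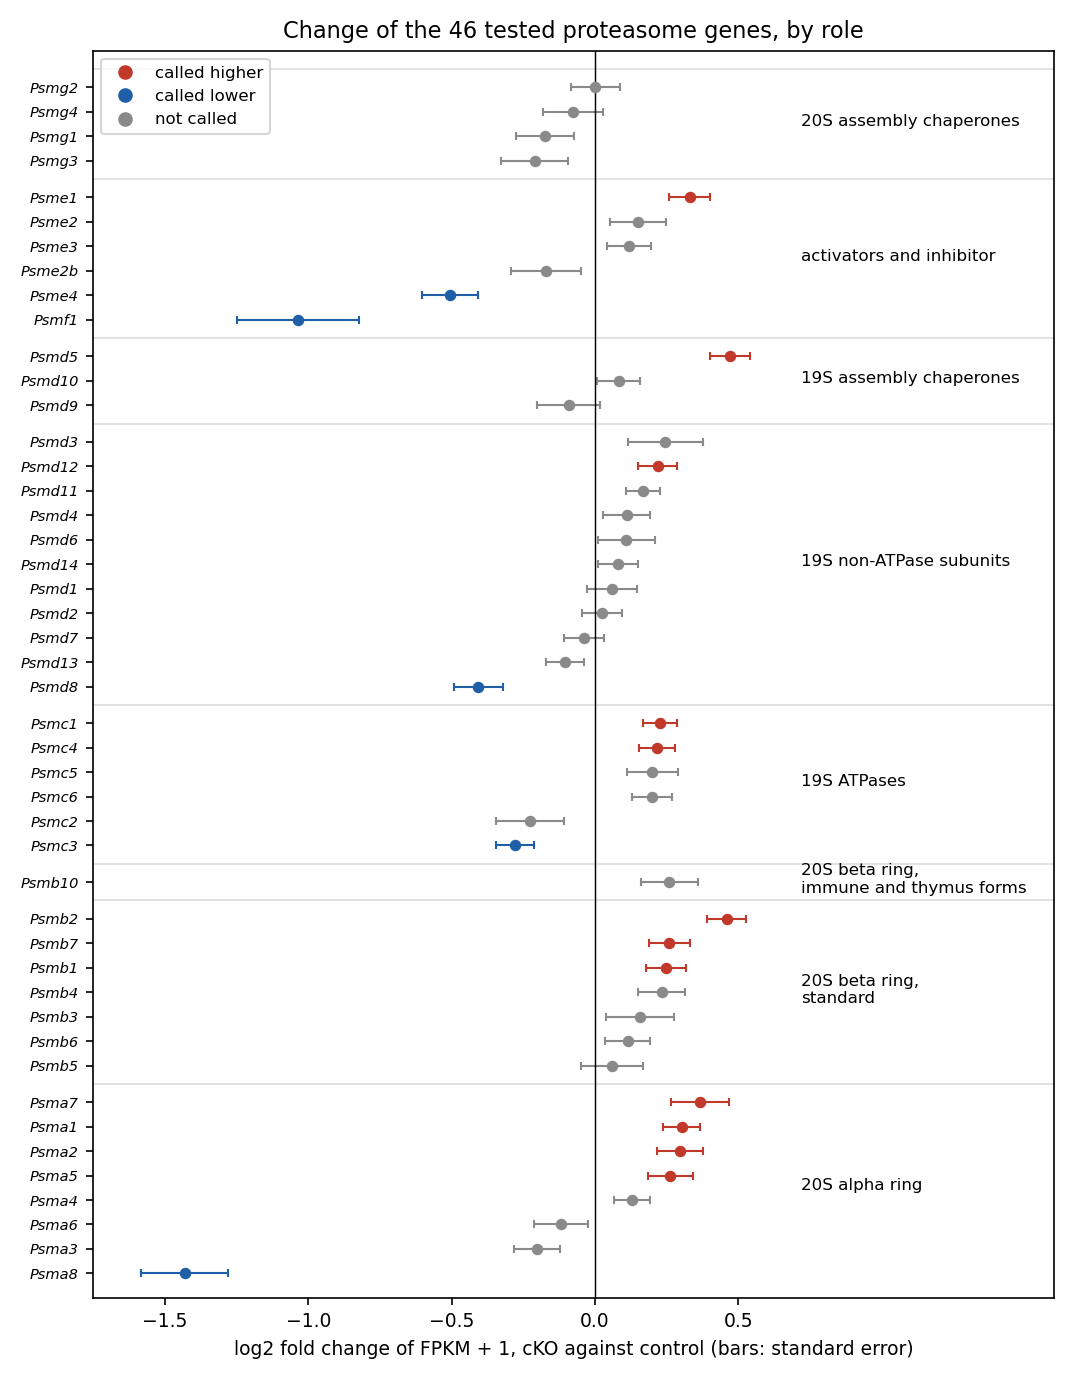
Log2 fold change of FPKM + 1 in cKO against control for the 46 tested genes (points) with its standard error (bars), grouped by role and coloured by the limma call. All 7 standard beta genes lie right of 0, and the 3 genes farthest to the left are *Psma8* (-1.43), *Psmf1* (-1.04) and *Psme4* (-0.51).

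The activators and the inhibitor of the core held the other large falls. *Psmf1* and *Psme4* fell, *Psme1* rose, and *Psme2*, *Psme2b* and *Psme3* did not pass. The median of the 6 was -0.027, and turned positive under 4 of 5 other scalings (0.080 after quantile normalization). It stayed below the median of all genes tested under each scaling. The difference from that median was -0.018 with the deposited FPKM and -0.13 after quantile normalization.

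*Psmf1* (ENSMUSG00000032869, chromosome 2, 151715812 to 151744186, minus strand) encodes PI31, which binds and inhibits the 20S core in vitro and acts as an adaptor for proteasome transport. It was at 15.03, 25.9 and 14.2 FPKM in control and at 7.86, 8.16 and 8.39 FPKM in cKO. The cKO libraries agreed closely and lay below every control library, and the mean in cKO was 44.2% of that in control (18.4 ± 6.53 against 8.14 ± 0.267 FPKM). The log2 fold change was -1.04 with a standard error of 0.21 (limma, Benjamini-Hochberg adjusted p = 0.0097). Control replicate 2 was 1.77 times the mean of control replicates 1 and 3, the highest such ratio of the 46 genes, against 1.27 for the next gene, *Psmc2*, and 0.829 for *Psma8*, the lowest. The spermatid markers, at a median ratio of 2.74, were also high in that library, and early meiotic markers, at 0.794, were not. Some markers of Leydig cells, of macrophages and blood, and of peritubular cells were high there too, while *Star*, *Cd68* and *Tagln* were not. Without control replicate 2 the log2 fold change of *Psmf1* was -0.77 (limma adjusted p = 0.00098). The part of these signals in this fall was not tested.

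*Psme4* (ENSMUSG00000040850, chromosome 11, 30771726 to 30880361, plus strand) encodes PA200. It was at 32.7, 31.7 and 28.6 FPKM in control and at 22.9, 22.9 and 18.99 FPKM in cKO. The groups were well apart, and the mean fell from 31.0 ± 2.15 to 21.6 ± 2.25 FPKM (log2 fold change -0.51 ± 0.098, limma adjusted p = 0.0078). Control replicate 2 was 1.04 times the mean of the other control libraries here, so this gene did not share the excess of *Psmf1* in that library.

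The PA28 activators differed in their calls. *Psme1* (PA28 alpha) was at 23.6, 23.2 and 21.6 FPKM in control and 30.3, 29.0 and 27.4 FPKM in cKO (log2 fold change 0.33 ± 0.072, limma adjusted p = 0.013). Its partner *Psme2* (PA28 beta), with overlapping groups, had a log2 fold change of 0.15 (limma adjusted p = 0.27), and the nuclear *Psme3* (PA28 gamma) of 0.12 (limma adjusted p = 0.28). *Psme2b* (log2 fold change -0.17, limma adjusted p = 0.32), a single-exon copy of *Psme2*, is uncertain because only 48.0% of its 100-base windows are unique, and *Psme2* itself has 81.6%.

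Sequences before the RefSeq start sites of *Psmf1*, *Psme4* and *Psmd8* are printed because these 3 genes fell in every alternative and have an entry among the RefSeq promoters used here (GRCm38.p6, 250 bases before to 50 after each start), in which *Psma8* and *Psmc3* have none. Each is given 5′ to 3′ on the strand of its gene, and capitals mark the match to the MYB-type motif AACNGNC, searched on both strands. *Psmf1* is read from chr2:151741311-151741560 (minus), *Psme4* from chr11:30771525-30771725 (plus) and *Psmd8* from chr7:29180674-29180923 (minus). GENCODE M21 places some starts elsewhere. It has an exon in the last 49 of the 250 bases of *Psme4*, which are left out here, and in the last 28 bases of *Psmd8*, which are kept and include the marked match. The stretch of *Psmf1* lies inside the gene span given above but holds no exon of that gene.
Psmf1: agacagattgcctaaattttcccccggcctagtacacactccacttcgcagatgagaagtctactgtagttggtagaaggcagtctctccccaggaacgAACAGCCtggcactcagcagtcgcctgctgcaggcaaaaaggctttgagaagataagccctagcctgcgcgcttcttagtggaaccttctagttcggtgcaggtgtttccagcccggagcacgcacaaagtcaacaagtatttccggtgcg
Psme4: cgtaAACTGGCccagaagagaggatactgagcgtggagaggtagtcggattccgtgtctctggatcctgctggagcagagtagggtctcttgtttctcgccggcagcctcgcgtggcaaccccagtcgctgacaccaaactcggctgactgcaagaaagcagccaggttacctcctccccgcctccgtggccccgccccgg
Psmd8: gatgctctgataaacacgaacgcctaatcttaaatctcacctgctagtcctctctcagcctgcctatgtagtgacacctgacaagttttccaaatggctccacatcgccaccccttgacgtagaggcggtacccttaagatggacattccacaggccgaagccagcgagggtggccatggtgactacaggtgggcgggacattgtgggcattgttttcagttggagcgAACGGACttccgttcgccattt
Each of the 3 stretches holds 1 match, beginning at -151, -246 and -22 relative to the RefSeq start. This is a common motif. It was found in 19 of the 41 members with an entry (46.3%) and in 36.0% of 27025 genes, and members that did not fall hold it too, such as *Psmc1* and *Psmb5*.

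The other motifs were counted in the same way. The Nfe2l1-type element TGACNNNGC, the site of the factor that raises proteasome genes when proteolysis fails, was in 6 of 41 members (14.6%) and in 14.0% of all genes, and the cyclic AMP element TGACGTCA was in none of the members and in 2.03% of all genes. The interferon-stimulated response element, searched as a pair of GAAA with any 2 bases between them on either strand, was in 5 members (12.2%) and in 3.99% of all genes. *Psme1*, which rose, is 1 of the 5, with its match in capitals in ctgtgcTTTCGCTTTCccttcc (chr14:55578497-55578518, plus strand). The other 4, *Psmb3*, *Psmd4*, *Psmd9* and *Psmg4*, did not pass the test. A match describes letters in these windows and not a site that is in use.

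Among the assembly chaperones of cap and core, only *Psmd5* was called, which holds ATPases of the 19S base until they are assembled. It was at 8.89, 9.17 and 8.84 FPKM in control and 12.96, 12.88 and 12.60 FPKM in cKO. The spread within each group was under 0.2 FPKM (SD), and the mean was higher by 42.9% (log2 fold change 0.47 ± 0.071, limma adjusted p = 0.0025). The other 19S chaperones *Psmd9* (log2 fold change -0.091, limma adjusted p = 0.55) and *Psmd10* (0.082, adjusted p = 0.43) did not pass. The 4 chaperones of the core, *Psmg1* to *Psmg4*, had a median log2 fold change of -0.13 and none was called (limma adjusted p from 0.21 to 0.99). That median was positive, 0.065, after quantile normalization, which shifted all genes. Relative to the median of all genes tested it was -0.12 with the deposited FPKM and -0.15 after quantile normalization.

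Of the 17 genes called, 6 were called in the same direction in all 16 alternatives, *Psma8*, *Psmf1*, *Psme4* and *Psmd8* lower and *Psmb2* and *Psmd5* higher. *Psme1* lost its call only without control replicate 3, and *Psma1* only with the replicate block. The other 9 genes with an adjusted p between 0.01 and 0.05 lost theirs in 5 to 10 alternatives.

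**Figure D4:**
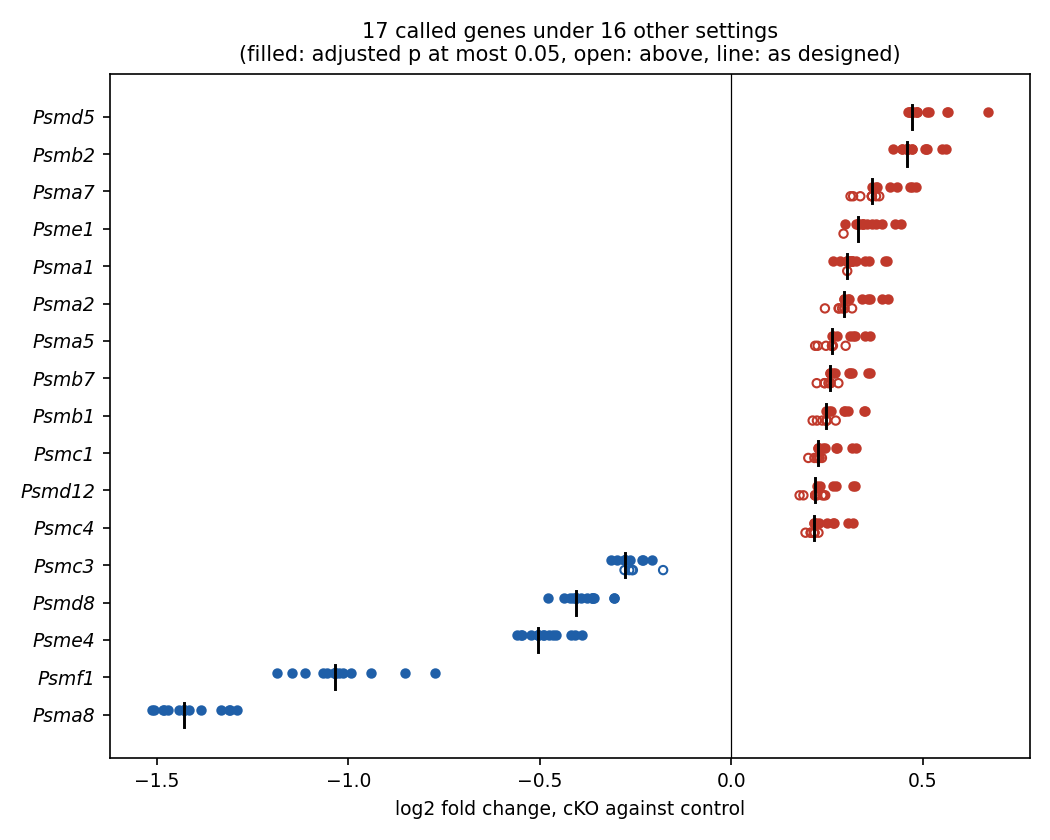
Log2 fold change (horizontal) of the 17 called genes under each of 16 other settings (points, filled where the adjusted p was at most 0.05, open where it was above), with a vertical line for the value as designed. No point crosses 0, and the 6 genes without an open point are *Psma8*, *Psmf1*, *Psme4*, *Psmd8*, *Psmb2* and *Psmd5*.

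Genes that work with the proteasome were taken from a list of 50 symbols, 49 of which were in the table and 46 of which were tested. Of these 6 rose and 11 fell, close to the 11.8% and 22.2% of all genes tested. The falls were largest among the ubiquitin shuttles, proteins that bind ubiquitin chains and the 19S cap at once. Of 13 shuttle genes 6 fell and 1 rose.

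*Ubqln5* (chromosome 7, 104127912 to 104129826, minus strand) and *Ubqlnl* (chromosome 7, 104148259 to 104150556, minus strand), testis forms of ubiquilin, had no fragment in any cKO library. *Ubqlnl* was at 11.3, 25.1 and 8.91 FPKM in control, and *Ubqln5* at 4.69, 16.5 and 4.98 FPKM. Against a floor of 3 fragments per cKO library, their means were at least 169-fold and 81.5-fold lower in cKO, in that order. Without control replicate 2 these limits were 113-fold and 45.2-fold. *Ddi1* (chromosome 9, 6262733 to 6269846, minus strand), a shuttle with a protease-like fold, was at 2.54, 5.89 and 2.23 FPKM in control and had no fragment in cKO, at least 123-fold lower, or 83.0-fold without control replicate 2. All 3 were highest in control replicate 2, at 2.46 to 3.41 times the mean of the other control libraries. The spermatid markers and some of the Leydig, peritubular, and macrophage and blood markers were high in that library too, and their part in these falls was not tested. The widely expressed paralogs were present in both groups, and no test of a difference between paralogs was made. *Ubqln1* (log2 fold change -0.12, limma adjusted p = 0.21), *Ubqln2* (0.40, adjusted p = 0.072) and *Ddi2* (0.12, adjusted p = 0.28) did not pass the test. *Ubqln4* went from 17.9, 18.8 and 18.7 FPKM to 14.1, 12.0 and 13.8 FPKM (log2 fold change -0.45, limma adjusted p = 0.0067), while *Rad23b* did not pass (-0.059, adjusted p = 0.49).

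**Figure D5:**
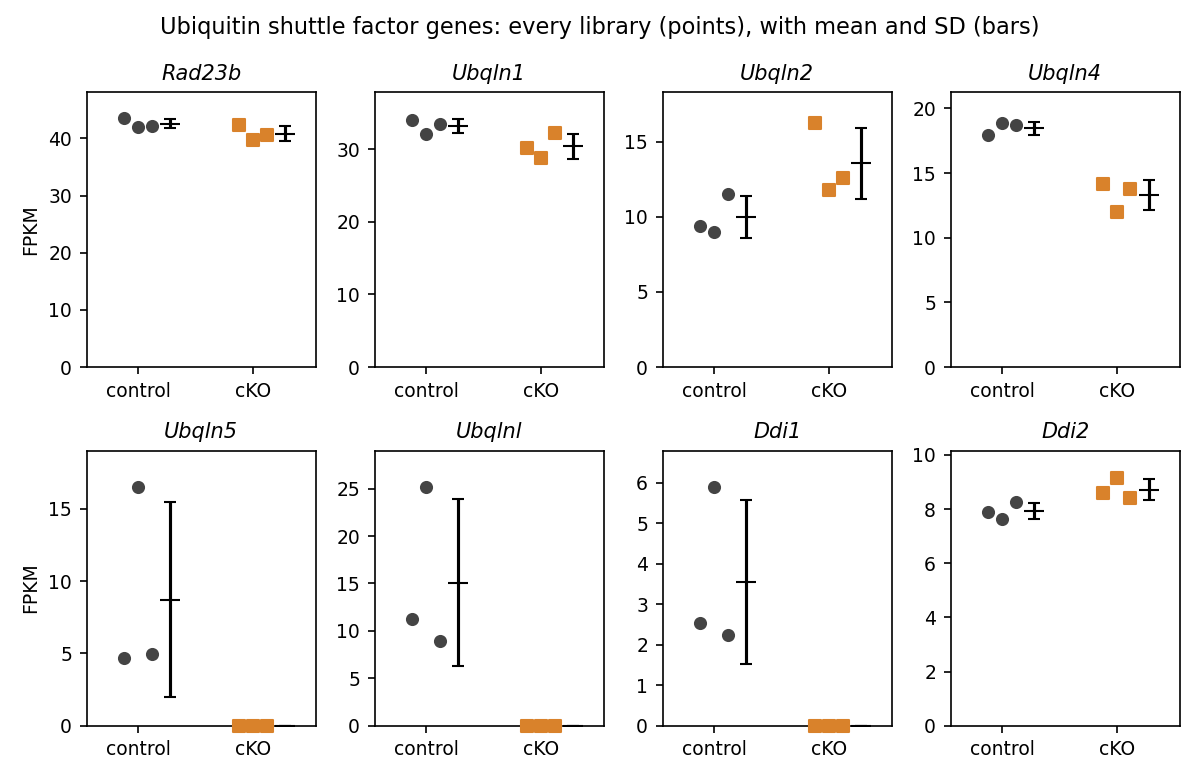
FPKM of 8 ubiquitin shuttle genes, with 1 point for each library (circles, control, squares, cKO) and the mean and SD as bars. *Ubqln5*, *Ubqlnl* and *Ddi1* are at 0 in all 3 cKO libraries, and *Rad23b* overlaps between the groups.

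Among the other partners, *Akirin2*, which carries proteasomes into the nucleus, fell from 47.3 ± 2.67 to 32.5 ± 0.860 FPKM (log2 fold change -0.53, limma adjusted p = 0.0013). *Ecpas*, a scaffold that binds the 26S proteasome, fell by 0.36 on the log2 scale (limma adjusted p = 0.013). *Bag6*, which holds misfolded proteins for degradation, fell from 90.7 ± 8.71 to 55.5 ± 7.43 FPKM (log2 fold change -0.70, limma adjusted p = 0.0040). *Usp14*, a deubiquitinase bound to the cap, rose (log2 fold change 0.34, limma adjusted p = 0.0088), as did *Txnl1* (0.26, adjusted p = 0.022), *Zfand5* (0.24, adjusted p = 0.046) and the p97 cofactor *Nsfl1c* (0.44, adjusted p = 0.0061). *Pithd1* fell at the threshold (log2 fold change -0.25, limma adjusted p = 0.050), and held its call in 2 of 16 alternatives, *Zfand5* in 8, *Txnl1* in 10, *Ecpas* in 13 and *Usp14* in 15.

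The regulators that set proteasome gene transcription were also measured. *Nfe2l1*, the main activator of these genes under proteotoxic stress, had a mean of 52.4 FPKM in control against 54.0 FPKM in cKO (log2 fold change 0.043, limma adjusted p = 0.68). *Ngly1*, the enzyme that removes its sugar chains and is needed for its activity, fell from 10.7, 11.6 and 10.1 FPKM to 5.96, 7.47 and 5.41 FPKM (log2 fold change -0.70, limma adjusted p = 0.0052). *Nfe2l2* (log2 fold change 0.31, limma adjusted p = 0.025) and *Stat3* (0.49, adjusted p = 0.021) rose, with calls in 11 and 14 of 16 alternatives, and *Foxo4* did not pass (0.091, adjusted p = 0.43).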

How the data were processed

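RNA-seq of STRA8+ testis cells gave 6 libraries, grouped by the genotype in their labels (3 control, 3 cKO). The authors deposited FPKM for 54532 genes with the gene lengths used. The submitters' processing notes name HISAT2 2.0.5 and mm10. The counting tool, its strand setting and the annotation are not given in the sources used here. Fragment counts were recovered from FPKM and gene length (100% of values whole within 0.05 fragments, 14447887 to 17310353 per library). The FPKM denominator was 0.971 to 1.05 times their sum, so the deposited FPKM carry an undescribed factor for each library.

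All genes whose mean over the 6 libraries reached 1 FPKM were tested as log2(FPKM + 1) with limma 3.58.1 in R 4.3.3 (lmFit, eBayes with trend), with Benjamini-Hochberg adjustment over 15451 genes and a threshold of 0.05. Log2 fold changes on this scale understate changes of low genes. Shares were compared by exact two-sided permutation tests. The scripts were tested on simulated data. The members, marker and pathway lists, roles and motifs were chosen with earlier results of these data known. Values of every library were to be given for called members whose groups did not overlap, at most the 15 of largest change, and for *Psma7*, *Psma8*, *Psmb5* to *Psmb10* and *Psme4*. Of other genes, called pathway genes and up to 4 of each marker list could be named, and the uncalled pathway genes named were chosen after their values were seen. Some genes counted in the pathway list are not reported here by name. Alternatives were another pseudocount (0.1), no filter or a mean of at least 5 FPKM, median of ratios scaling, quantile normalization, no trend, a replicate block, limma-voom on recovered fragments, shares of fragments, and leaving out each library. Added after the data were seen were FPKM without the authors' factor, FPKM scaled to the same sum, and the GENCODE M21 length of *Psma8*.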

Additional observations from a re-analysis of the deposited data

How the results depend on the processing

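The 5 falls among the members were stable in number, at 4 to 5 in every alternative, and the number of rises was not. Members called higher, 12 as designed, were 19 after quantile normalization, 4 without the trend, 3 with the replicate block and 3 to 12 when 1 library was left out (5 without control replicate 1, 3 without control replicate 3, 4 without each of the cKO replicates), where fewer samples were fitted. All genes called higher, 1821 as designed, were 5164 after quantile normalization, 891 with the block and 969 to 1767 without 1 library. All genes called lower, 3437, were 1950 with a mean of at least 5 FPKM, where fewer genes were tested, and 2693 to 3510 without 1 library. Pathway genes called higher, 6, were 16 after quantile normalization, 10 with limma-voom, 11 with FPKM scaled to the same sum, 2 with the block and 3 to 6 without 1 library, and those called lower, 11, were 9 to 11. Libraries with the same replicate number did not deviate together (r of -0.0014, -0.11 and 0.016 across genes, and control replicate 1 correlated best with cKO replicate 2, at 0.13), so the block was not taken as a pairing of the samples. The difference in *Psma8* share stayed between -34.2 and -27.9 points when 1 library was left out, and that in immune share between 0.25 and 0.65. Signs turned for members that had not passed the test. After quantile normalization *Psmd7* had a log2 fold change of 0.069, *Psmd9* 0.22, *Psmg3* 0.12 and *Psmg4* 0.029. With limma-voom *Psmd7* was at 0.011, without the authors' factor at 0.0095, and scaled to the same sum at 0.061, where *Psmg4* was at 0.022. Over the fits without 1 library, *Psmb5* ranged from -0.015 (without cKO replicate 3) to 0.15, *Psmd1* from -0.0030 (cKO replicate 2) to 0.12, *Psmd2* from -0.018 (control replicate 3) to 0.068, *Psmd7* from -0.069 to 0.011 (cKO replicate 2), *Psmg4* from -0.14 to 0.017 (cKO replicate 2) and *Psmg2* from -0.056 (cKO replicate 2; -0.031 without control replicate 1 and -0.020 without cKO replicate 3) to 0.079. The cause of these shifts was not tested.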
